A study of Mus musculus with 2 samples.

Results

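The genes described here are 10 members of the machinery by which macrophages bind and clear dying cells and modified lipoproteins: Gas6, Cd5l, Axl, Mertk, Timd4, Stab1, Scarb1, Cd36, Msr1 and Marco. They were chosen by gene symbol, from a fixed list of names, out of 16428 genes with a read in at least 1 library, and all 10 had reads in both libraries. The samples were macrophages sorted from bone marrow and from spleen of C57BL/6J mice with acute myeloid leukaemia, with 1 RNA-seq library per tissue. Leukaemia in all of these mice came from GFP-labelled cells of leukaemic donors, in the MLL-AF9 model (a fusion oncogene that transforms blood progenitors), given at 500000 cells per mouse without irradiation to recipients aged 6 to 8 weeks. Both tissues were taken at day 15 of a disease with a survival of 25 to 30 days. Without irradiation, blood formation of the host had not been ablated. The sources used here do not give the surface markers of the sort or how many mice stand behind a library, and healthy macrophages were not analysed here.

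Efferocytosis is the uptake of apoptotic cells. Dying cells expose phosphatidylserine, which macrophages bind directly through receptors such as TIM-4 (Timd4) and stabilin-1 (Stab1), or through bridging proteins such as GAS6 that link it to the TAM receptor tyrosine kinases AXL and MERTK. Scavenger receptors (Msr1, Marco, Cd36, Scarb1) bind modified lipoproteins, lipids and microbes, and several also bind apoptotic cells. In spleen and bone marrow, resident macrophages use these receptors to clear aged blood cells and expelled nuclei.

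With 1 library per tissue there was no replicate check. Each difference below is therefore between 2 libraries, and intervals are exact 95% counting intervals that do not cover variation between mice. Depth was alike: uniquely placed reads, multiplied by the scaling factor of the library, came to 9405947 in bone marrow, against 8457857 in spleen, with reads for 15376 and 15550 genes. Levels are given as reads, as CPM (reads scaled to a common library size) and, between genes, as the deposited RPKM (reads scaled to gene length and library size). A gene was called higher in a library when log2(CPM + 1) differed by at least 1, which is 2-fold on that scale and understates the change of low genes.

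The promoter sequences of 4 members are shown because these genes had contrasting levels in the tissues: Cd5l, Cd36 and Timd4 were lower in bone marrow and Stab1 was higher there. Each run is the 250 bases before the gene's start in RefSeq (build GRCm38.p6), written 5′ to 3′ on the gene's own strand, and capitals mark motif matches (as the reverse complement where a match is on the opposite strand). The runs of Cd5l and Stab1 hold none of the 4 motifs searched. They lie at chr3:87357631-87357880 (plus strand), chr5:17835897-17836146 (minus strand), chr11:46810549-46810798 (plus strand) and chr14:31168642-31168891 (minus strand).
Cd5l: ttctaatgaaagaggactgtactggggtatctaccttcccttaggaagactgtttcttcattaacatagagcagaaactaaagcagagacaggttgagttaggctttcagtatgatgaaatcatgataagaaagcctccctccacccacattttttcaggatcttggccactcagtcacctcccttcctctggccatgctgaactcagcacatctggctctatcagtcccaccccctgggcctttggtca
Cd36: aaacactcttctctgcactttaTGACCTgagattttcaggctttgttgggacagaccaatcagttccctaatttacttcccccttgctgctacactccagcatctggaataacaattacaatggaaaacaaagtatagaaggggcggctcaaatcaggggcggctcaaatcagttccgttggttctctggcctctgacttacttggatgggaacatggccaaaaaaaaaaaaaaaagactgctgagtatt
Timd4: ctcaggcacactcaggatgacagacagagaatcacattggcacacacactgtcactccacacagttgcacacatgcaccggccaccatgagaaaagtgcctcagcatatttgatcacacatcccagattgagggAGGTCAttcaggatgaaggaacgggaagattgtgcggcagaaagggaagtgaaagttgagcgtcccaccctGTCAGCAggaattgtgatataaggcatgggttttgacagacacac
Stab1: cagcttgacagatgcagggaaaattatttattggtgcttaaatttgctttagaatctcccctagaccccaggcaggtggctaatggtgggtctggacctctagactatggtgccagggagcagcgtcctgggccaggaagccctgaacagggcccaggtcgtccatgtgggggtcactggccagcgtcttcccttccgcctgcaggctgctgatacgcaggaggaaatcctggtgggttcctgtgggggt

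A set of 4 motifs was searched on both strands of the 250-base windows of 32851 promoters, which covered 8 of the 10 members. AGGTCA, the core of nuclear receptor elements, was present before Cd36 (228 bases before the start, opposite strand) and Timd4 (116 bases before the start, same strand), and in 14% of all promoters. TGCTGAC, the core of Maf elements, was present before Timd4 (45 bases before the start, opposite strand) and in 3.81% of all promoters. The PU.1 motif GAGGAAGT, held by 2.44% of promoters, and the E box CACGTG, held by 6.02%, were in 0 of the 8 windows. None of the matches overlapped another. A match describes letters in this window and is not evidence of binding.

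Most of these genes were less abundant in the bone marrow library than in the spleen library. Of the 10 members, 6 were at least 2-fold lower in bone marrow (Cd5l, Axl, Mertk, Timd4, Cd36 and Marco), 2 were at least 2-fold higher (Stab1 and Scarb1) and 2 lay within 2-fold (Gas6 and Msr1). Of 12970 genes measured with the same rule, 14.6% were higher in spleen and 14.1% were higher in bone marrow. The median log2 ratio of bone marrow over spleen was -1.38 for the 10 members, against 0.03 for all measured genes. The members together had 263 CPM in bone marrow, against 401 CPM in spleen.

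**Figure D1:**
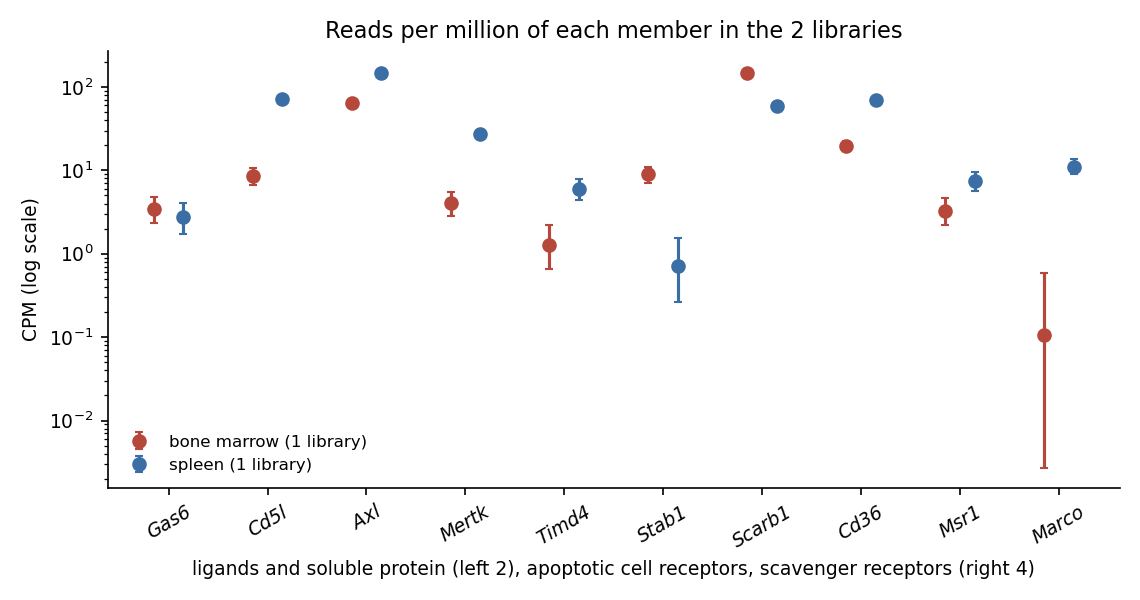
CPM of each member in the bone marrow library (red, left of each pair) and the spleen library (blue), on a log scale, with exact 95% Poisson intervals of the count. Cd5l, Axl, Mertk, Timd4, Cd36, Msr1 and Marco lie lower in bone marrow, Stab1 and Scarb1 lie higher, and the intervals of Gas6 overlap.

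The summed level of core macrophage markers was also lower in bone marrow. The 14 core macrophage markers hold none of the 10 members, though C1qa, C1qc, Cd68, Maf and Lgmn, named further on, are among them. They summed to 731 CPM in bone marrow, against 1252 CPM in spleen, a ratio of 0.584. None of the 14 was at 0 in either library; 6 were at least 2-fold lower in bone marrow and 1, Tcn2, was higher. Csf1r, which encodes the M-CSF receptor of macrophages, had 197 CPM in bone marrow, against 364 CPM in spleen, and Adgre1, the F4/80 antigen, had 53.1 and 142 CPM in the same order. In bulk samples fewer cells of a type and less RNA per cell cannot be told apart. Ratios were therefore also taken per read of these markers, which shifts every gene by the same factor and places the median of all measured genes at 0.76 on the log2 scale. Tcn2 alone held 1321 of the 6880 marker reads in bone marrow, against 288 of 10590 in spleen. It therefore lowers every ratio of bone marrow over spleen taken per marker read, and the ratios were not recomputed without it.

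**Figure D2:**
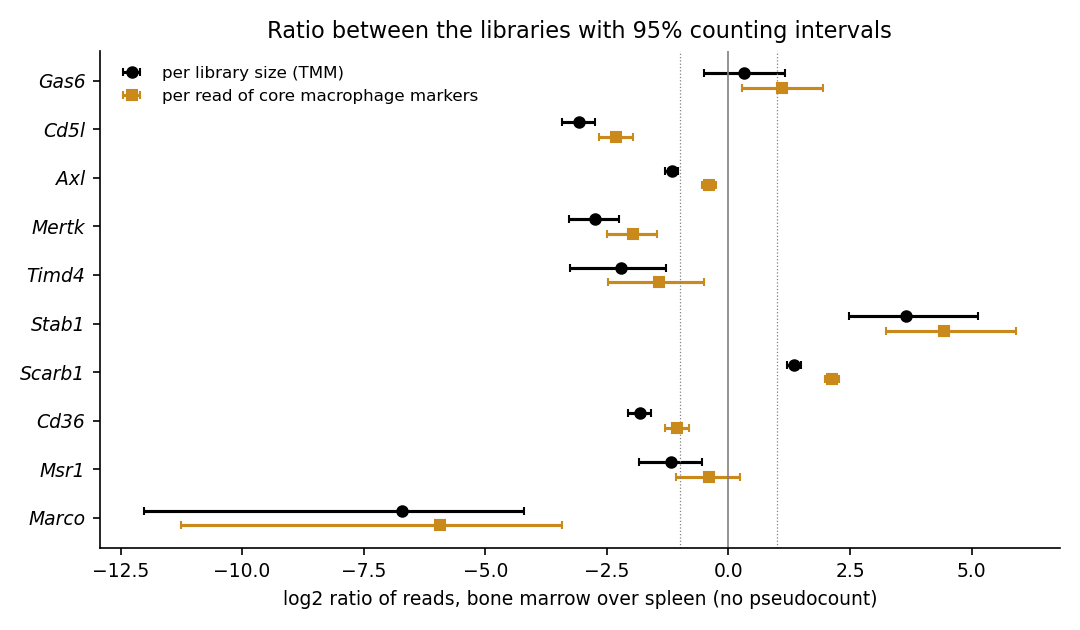
Log2 ratio of reads, bone marrow over spleen, for each member after scaling to library size (black circles) and per read of the 14 core macrophage markers (ochre squares), with exact 95% counting intervals. Dotted lines mark 2-fold; Cd5l, Mertk, Timd4, Cd36 and Marco lie left of the lower line on both scales, Stab1 and Scarb1 lie right of the upper line on both, and Gas6 does so per marker read.

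Gas6 encodes the vitamin K-dependent ligand that bridges phosphatidylserine to the TAM receptors. It had 32 reads (3.40 CPM) in bone marrow, against 23 reads (2.72 CPM) in spleen, a ratio of 1.25 (0.710 to 2.24). Its counting interval included equal levels, so these counts could not show a difference between library-scaled levels. Per core macrophage read it was 2.14-fold higher in bone marrow (1.21 to 3.83). Pros1, which encodes protein S, the other TAM ligand, had 74 reads (7.87 CPM) in bone marrow, against 29 reads (3.43 CPM) in spleen, a ratio of 2.29 (1.48 to 3.66). Per kilobase, Gas6 was at 0.545 times the level of Pros1 in bone marrow against 1.00 times in spleen. The counting interval for the ratio of those values, 0.260 to 1.15, included 1.

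Axl and Mertk were both lower in bone marrow, Mertk by more than Axl. Mertk, the receptor of steady-state efferocytosis by resident macrophages, had 38 reads (4.04 CPM) in bone marrow, against 229 reads (27.1 CPM) in spleen. It was 6.70-fold lower in bone marrow (4.74 to 9.71), and 3.92-fold lower per core macrophage read (2.77 to 5.67). Axl, the TAM receptor that inflammatory signals induce, had 612 reads (65.1 CPM) in bone marrow, against 1236 reads (146 CPM) in spleen, a 2.25-fold difference (2.04 to 2.48). Per core macrophage read Axl was 1.31-fold lower (1.19 to 1.45), inside the 2-fold limit, and its direction depended on the single marker it was set against. Its ratio of bone marrow over spleen was 1.19 per read of Adgre1 (1.03 to 1.38) but 0.825 per read of Csf1r (0.736 to 0.925). Axl exceeded Mertk per kilobase by 11.3 times in bone marrow and by 3.78 times in spleen, and those values differed by a factor of 2.98 (2.08 to 4.38) that does not depend on scaling between libraries. Tyro3, the other TAM receptor, had 16 reads in bone marrow, against 32 in spleen (log2 ratio -0.82, within 2-fold).

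The direct phosphatidylserine receptors Timd4 and Stab1 differed in opposite directions. Timd4, a receptor of long-lived resident macrophages, had 12 reads (1.28 CPM) in bone marrow, against 50 reads (5.91 CPM) in spleen. It was 4.63-fold lower in bone marrow (2.43 to 9.56) and 2.71-fold lower per core macrophage read (1.42 to 5.58). Per read of Csf1r Timd4 was 2.50-fold lower (1.31 to 5.17). Per read of Adgre1 it was 1.73-fold lower, with an interval (0.897 to 3.59) that included equal levels. Stab1, a large clearance receptor of sinusoidal endothelium and of some macrophages, had 84 reads (8.93 CPM) in bone marrow, against 6 reads (0.709 CPM) in spleen, a ratio of 12.6 (5.55 to 35.3), or 21.5 per core macrophage read (9.50 to 60.4). The 84 bone marrow reads covered 39.0% of the gene's length, against 40.2% expected if reads fell evenly, so they were not piled at 1 place. Stab2, its paralogue, went the other way, with 50 reads (5.32 CPM) in bone marrow, against 181 reads (21.4 CPM) in spleen. The ratio of Stab1 to Stab2 per kilobase was 1.71 in bone marrow and 0.0338 in spleen. Timd4 over Mertk was 0.517 per kilobase in bone marrow, against 0.358 in spleen, and the interval for the factor between these, 0.640 to 3.08, included 1.

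Marker lists of other cell types also differed, and their part in the Stab1 and Scarb1 differences was not tested. The 12 endothelial markers summed to 283 CPM in bone marrow, against 221 CPM in spleen; of the 10 measured, bone marrow had 5 higher (Tek, Emcn, Vwf, Egfl7 and Eng) and spleen had 2 higher (Kdr and Esam). Emcn and Lyve1 had 34 and 6 reads in bone marrow, against 0 for both in spleen, and Cdh5, the endothelial cadherin, had 15 reads in bone marrow, against 27 in spleen. The stem and progenitor list was higher in bone marrow for 7 of 9 measured genes and in spleen for 0, with sums of 990 CPM in bone marrow, against 282 CPM in spleen. In that list Spink2 had 0 reads in both libraries and Mecom had 53 in bone marrow and 0 in spleen. Meis1 and Hoxa9 of that list had 51.0 and 24.3 CPM in bone marrow, against 6.15 and 3.31 CPM in spleen. The mice carried leukaemic cells, and whether such cells were among those sorted was not tested. The neutrophil and granulocyte precursor list was higher in bone marrow for 15 of 16 measured genes and in spleen for 0, summing to 48947 CPM in bone marrow, against 2281 CPM in spleen, with Ly6g at 0 in both. Of 12 monocyte markers bone marrow had 4 higher and spleen 2, with 3439 CPM in bone marrow, against 1768 CPM in spleen, and no marker at 0. Of those sums Cd177, which mouse neutrophils express, held 1188.5 CPM in bone marrow, against 59.6 CPM in spleen. Without Cd177 the sums were 2250.5 CPM in bone marrow, against 1708 CPM in spleen. They still held Itgam, at 635 CPM in bone marrow, against 156 CPM in spleen. Stromal markers were scarce: Pdgfra, Dcn and Lum had 0 reads in both libraries, Cxcl12, Col3a1 and Bglap had 0 in spleen alone, and the list summed to 47.5 CPM in bone marrow, against 9.10 CPM in spleen.

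The class B scavenger receptors also divided. Scarb1, the high-density lipoprotein receptor SR-BI, had 1401 reads (149 CPM) in bone marrow, against 494 reads (58.4 CPM) in spleen, a ratio of 2.55 (2.30 to 2.83). Per core macrophage read its ratio was 4.37 (3.94 to 4.85). Cd36, which takes up oxidised lipoproteins and fatty acids, had 185 reads (19.7 CPM) in bone marrow, against 590 reads (69.8 CPM) in spleen. It was 3.55-fold lower in bone marrow (3.0 to 4.21) and 2.07-fold lower per core macrophage read (1.75 to 2.46). Its ratio of bone marrow over spleen was 0.757 per read of Adgre1 (0.619 to 0.923). Per read of Csf1r that ratio was 0.523 (0.436 to 0.624). Both single-marker ratios were inside the 2-fold limit, though the interval per Csf1r read reached past it. Per kilobase, Cd36 stood at 0.0938 times the level of Scarb1 in bone marrow and at 0.849 times in spleen, which differ 9.04-fold (7.42 to 11). Scarb2, the lysosomal member of the class, was similar in the libraries at 47.3 CPM in bone marrow, against 57.0 CPM in spleen.

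Cd36 is also made by platelets, erythroid precursors, marginal zone B cells and CD8-type dendritic cells. Of these, the platelet list was higher in bone marrow (7 of 9 measured, 355 CPM in bone marrow, against 31.8 CPM in spleen, Gp6 at 0 in both), and 9 of 11 erythroid markers were within 2-fold (374 CPM in bone marrow, against 234 CPM in spleen). The marginal zone B cell list had 7 of 9 markers higher in spleen and 2, Cd9 and Plac8, higher in bone marrow (1238 CPM in bone marrow, against 1770 CPM in spleen). Cr2, the complement receptor of those B cells, had 1.38 CPM in bone marrow, against 318 CPM in spleen. Of 15 conventional dendritic cell genes spleen had 11 higher and bone marrow 0 (593 CPM in bone marrow, against 1823 CPM in spleen). The B cell and T cell lists were higher in spleen in 11 of 11 and 10 of 10 measured genes, with sums of 501 and 245 CPM in bone marrow, against 5016 and 1661 CPM in spleen. Trac was missing for both libraries, which does not tell a gene without expression from one that was not counted. The part of these cells in the differences of Cd36 and of the other members lower in bone marrow was not tested.

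The class A scavenger receptors Marco and Msr1 had few reads in bone marrow. Marco, which in mouse spleen marks marginal zone macrophages, had 1 read (0.106 CPM) in bone marrow, against 94 reads (11.1 CPM) in spleen. Its ratio was 105-fold towards spleen with an interval of 18.3 to 4172, so its size is poorly fixed; per core macrophage read it was 61.1-fold (10.7 to 2437). Msr1, the broadly expressed class A receptor of macrophages, had 31 reads (3.30 CPM) in bone marrow, against 63 reads (7.45 CPM) in spleen. On log2(CPM + 1) Msr1 was at -0.98, just inside the 2-fold limit, although its plain ratio was 2.26-fold lower in bone marrow (1.45 to 3.60). Per core macrophage read Msr1 was 1.32-fold lower, with an interval (0.846 to 2.10) that included equal levels. Marco stood at 0.0592 times the level of Msr1 per kilobase in bone marrow and at 2.74 times in spleen. Cd209b, a C-type lectin of the same marginal zone macrophages, had only 4 reads in bone marrow, against 10 in spleen.

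Cd5l encodes AIM, a secreted scavenger-receptor cysteine-rich protein that tissue macrophages make and that limits their apoptosis. It had 80 reads (8.51 CPM) in bone marrow, against 607 reads (71.8 CPM) in spleen, 8.44-fold lower in bone marrow (6.67 to 10.8). Per core macrophage read it was 4.93-fold lower (3.90 to 6.30). Cd5l over Mertk was 3.68 per kilobase in bone marrow, against 4.64 in spleen, and the interval for the factor between these, 0.516 to 1.24, included 1. Spic, which specifies red pulp macrophages of the spleen, had 4.15 CPM in bone marrow, against 38.2 CPM in spleen, and Cd5l over Spic was 1.27 per kilobase in bone marrow and 1.17 in spleen (interval for the factor 0.717 to 1.68).

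The order of the levels changed between the tissues. In bone marrow Scarb1 came first at 57.4 RPKM (54.5 to 60.5), above Axl at 12.5 (11.5 to 13.5), Cd36 at 5.39 and Cd5l at 4.08, whose intervals overlapped. Gas6, Mertk, Stab1, Msr1 and Timd4 followed between 1.28 and 0.573 RPKM, each overlapping its neighbour, and Marco came last at 0.0523. In spleen Cd5l came first at 36.1 RPKM (33.2 to 39.0), then Axl at 29.4 (27.8 to 31.1), Scarb1 at 23.6 and Cd36 at 20.02, the last pair overlapping. Mertk at 7.77 and Marco at 5.73 overlapped, as did Timd4 at 2.78, Msr1 at 2.09 and Gas6 at 1.07 with their neighbours, and Stab1 came last at 0.0908. Scarb1 exceeded 90.9% of all genes with a read in bone marrow and 75.9% in spleen, whereas Cd5l exceeded 40.5% in bone marrow and 84.6% in spleen.

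**Figure D3:**
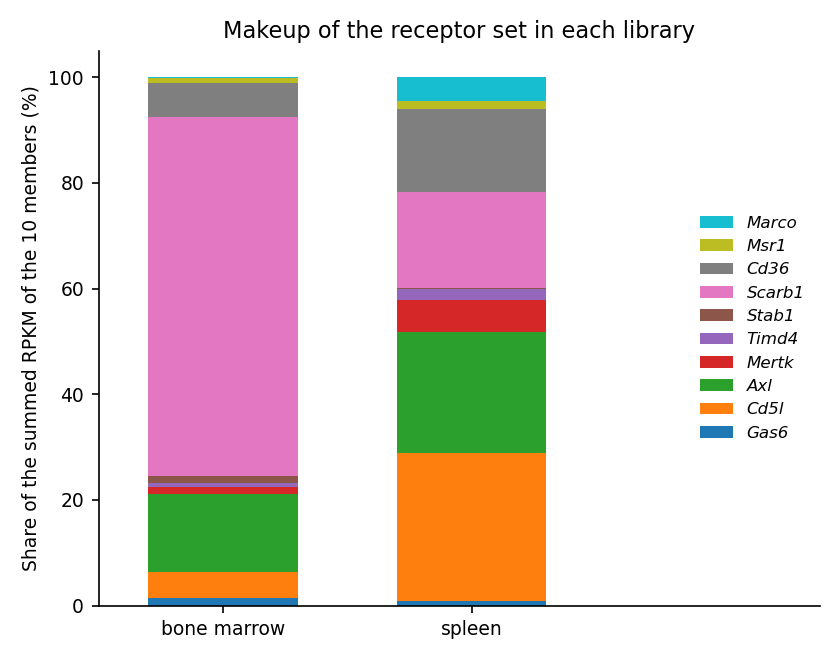
Share of the summed RPKM of the 10 members taken by each member, as stacked bars for the bone marrow library (left) and the spleen library. Scarb1 made up 68.1% in bone marrow and 18.3% in spleen, Cd5l 4.83% and 28.0%, and Axl 14.8% and 22.9%, with bone marrow first in each pair.

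Within the members' own reads the makeup can be compared without any scaling between libraries. Scarb1 held 56.6% of 2476 reads in bone marrow (Clopper-Pearson interval 54.6 to 58.5) and 14.6% of 3392 reads in spleen (13.4 to 15.8). Axl held 24.7% in bone marrow (23.0 to 26.5) and 36.4% in spleen (34.8 to 38.1). Cd36 held 7.47% in bone marrow (6.47 to 8.58) and 17.4% in spleen (16.1 to 18.7), and Cd5l held 3.23% (2.57 to 4.01) and 17.9% (16.6 to 19.2) in the same order. Mertk took 1.53% in bone marrow (1.09 to 2.10) and 6.75% in spleen (5.93 to 7.65).

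The deposited coverage column gives a view of the reads that the choice of genes did not use. Genes with 1 read had a median of 49.0 bases covered in both libraries, a read length that sets how much of a gene a given count would cover if reads fell evenly. Mertk was 43.2% covered in bone marrow, against 40.7% expected, and 91.5% covered in spleen, against 95.7% expected. Marco was 78.7% covered in spleen, against 90.2% expected, and its 1 read in bone marrow covered 2.47%. Axl stopped at 84.2% in bone marrow and 84.6% in spleen despite an expectation above 99%, leaving a similar share of its gene model without uniquely placed reads in both tissues. Cd36 was 64.8% covered in bone marrow, against 92.1% expected, and 81.0% covered in spleen, against an expectation of 99.97%. Over all measured genes the median of covered over expected share was 0.955 in both libraries.

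**Figure D4:**
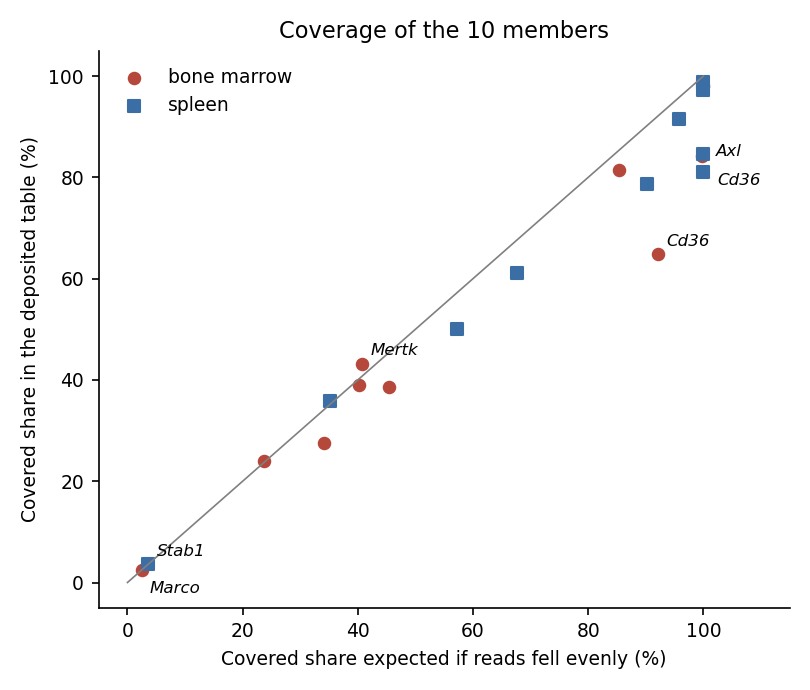
Share of each member's gene length covered by reads (vertical) against the share expected if its reads fell evenly (horizontal), for bone marrow (red circles) and spleen (blue squares), in percent, with the line of equality. Most members lie near the line; Axl (84.2% and 84.6%) and Cd36 (64.8% and 81.0%, bone marrow first) lie under it.

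The rest of the pathway was close to the background of all genes. Of 103 genes from 7 pathway lists that are not members, 94 were measured: 65 lay within 2-fold, bone marrow had 12 higher (12.8%) and spleen 17 (18.1%). Their median log2 ratio was -0.13. Over all measured genes 71.2% lay within 2-fold, and bone marrow had 14.1% higher and spleen 14.6%.

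Among the other genes listed as receptors of apoptotic cells, 12 of 16 measured lay within 2-fold, near the share over all measured genes. Bone marrow had 1 higher and spleen 3, and the median log2 ratio was -0.45. P2ry2, the receptor for nucleotides released by dying cells, had 14.9 CPM in bone marrow, against 1.54 CPM in spleen. Stab2, Havcr1 (TIM-1) and Timd2 (TIM-2) were the 3 higher in spleen. Timd2 had only 1 read in bone marrow and 15 in spleen, and whether its protein binds apoptotic cells was not assessed here. The highest CPM values were those of Lrp1, the receptor for calreticulin and many other ligands, at 84.3 CPM in bone marrow, against 150 CPM in spleen, and Cd300a, an inhibitory phosphatidylserine receptor, at 69.4 and 121 CPM in the same order.

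Other scavenger receptors went both ways. Among the 12 measured, 6 lay within 2-fold, bone marrow had 2 higher and spleen 4 (median -0.76). Of all measured genes, 71.2% lay within 2-fold, 14.1% were higher in bone marrow and 14.6% were higher in spleen. Olr1, which encodes LOX-1, a receptor for oxidised low-density lipoprotein, had 33.4 CPM in bone marrow, against 3.67 CPM in spleen, and Scarf1 had 18.8 and 2.96 CPM in the same order. Cd163l1, a relative of the haemoglobin receptor Cd163, had 3 reads in bone marrow, against 50 in spleen, and Cxcl16 had 6.59 CPM in bone marrow, against 28.0 CPM in spleen. Mrc1, the mannose receptor, was 2.59-fold lower in bone marrow (2.23 to 3.02), and Cd68, at 39.7 CPM in bone marrow, against 77.9 CPM in spleen, stayed within 2-fold.

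Bridging proteins and dying-cell signals differed both ways. Of the 11 measured, with Gas6 and Cd5l among them, bone marrow had 4 higher and spleen 3 (median 0.08). For all measured genes the shares were 14.1% and 14.6% in the same order. Pros1 was only just past the 2-fold limit, at 1.00 on log2(CPM + 1). Anxa1, which granulocytes express strongly and which promotes clearance of apoptotic neutrophils, had 1407 CPM in bone marrow, against 87.7 CPM in spleen, a ratio of 16 (14.9 to 17.3). Thbs1, which encodes thrombospondin-1, a ligand of CD36 also stored in platelets, had 17.2 CPM in bone marrow, against 4.14 CPM in spleen. Mfge8, which bridges phosphatidylserine to integrins, had 28.3 and 12.7 CPM in the same order. The complement genes C1qa and C1qc were lower in bone marrow, at 40.2 and 33.2 CPM, than in spleen, at 89.4 and 88.0 CPM. Granulocyte and platelet markers were higher in bone marrow as well, with sums given above, and their part in these differences was not tested.

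The machinery of engulfment and digestion was also near that background. Of 17 engulfment genes 14 lay within 2-fold, as did 71.2% of all measured genes; bone marrow had 2 higher and spleen 1 (median -0.05). Rac2, a GTPase of actin assembly in blood cells, had 1008 CPM in bone marrow, against 860 CPM in spleen, and Dock2, its activator, had 402 and 673 CPM in the same order. Dock1 was the exception with the most reads, at 30.3 CPM in bone marrow, against 4.14 CPM in spleen, while Ptk2 had 3.72 CPM in bone marrow, against 18.2 CPM in spleen. Gulp1 had 17 reads in bone marrow, against 0 in spleen. Of 18 phagosome and lysosome genes 14 lay within 2-fold (median -0.02), among them Psap, a precursor of lipid-degrading activators, at 1211 CPM in bone marrow, against 2350 CPM in spleen. Rubcn, needed for LC3-associated phagocytosis, was 4.08-fold lower in bone marrow (3.68 to 4.53), and the protease gene Ctss was 3.33-fold lower (3.14 to 3.53). Rab17, with 30 reads in bone marrow, against 3 in spleen, and Lamp2 were the 2 genes higher in bone marrow.

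Genes that handle the lipid of engulfed cells held 4 of 15 lower in bone marrow and 0 higher there (median -0.23). By the same rule spleen exceeded bone marrow for 14.6% of all measured genes, and the reverse held for 14.1%. Nr1h3, which encodes the oxysterol receptor LXR alpha, a known activator of Mertk and Cd5l in mouse macrophages, had 6.80 CPM in bone marrow, against 28.7 CPM in spleen, 4.22-fold lower in bone marrow (3.19 to 5.65). The LXR targets Abca1, a cholesterol exporter, and Mylip, a ligase for the low-density lipoprotein receptor, had 20.8 and 40.4 CPM in bone marrow, against 99.0 and 113 CPM in spleen. Abcg1, another exporter controlled by LXR, was within 2-fold at 77.1 CPM in bone marrow, against 124 CPM in spleen. Apoe and Ucp2, with the highest CPM values of the list, were nearly level, at 408 and 873 CPM in bone marrow, against 366 and 908 CPM in spleen. Srebf1, Lpl and Apoc1 also lay within 2-fold, at log2 ratios of 0.25, 0.40 and -0.23. The LXR targets of the list were not tallied as a group. Whether LXR had a part in the differences of Mertk and Cd5l was not tested.

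Of the genes that restrain engulfment 7 of 10 were within 2-fold (median -0.47), near the 71.2% of all measured genes. Cd24a, a do-not-eat-me signal also carried by immature blood cells, had 740 CPM in bone marrow, against 338 CPM in spleen. Siglecg, a CD24 receptor of B cells, had 67.0 CPM in bone marrow, against 374 CPM in spleen, where B cell markers were higher too. Pirb, an inhibitory receptor, was 2.07-fold lower in bone marrow (1.86 to 2.31), and Ptpn6, the phosphatase SHP-1, had 419 CPM in bone marrow, against 723 CPM in spleen. Adam17, which sheds MERTK from the surface, was nearly level at 112 and 144 CPM in the same order.

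**Figure D5:**
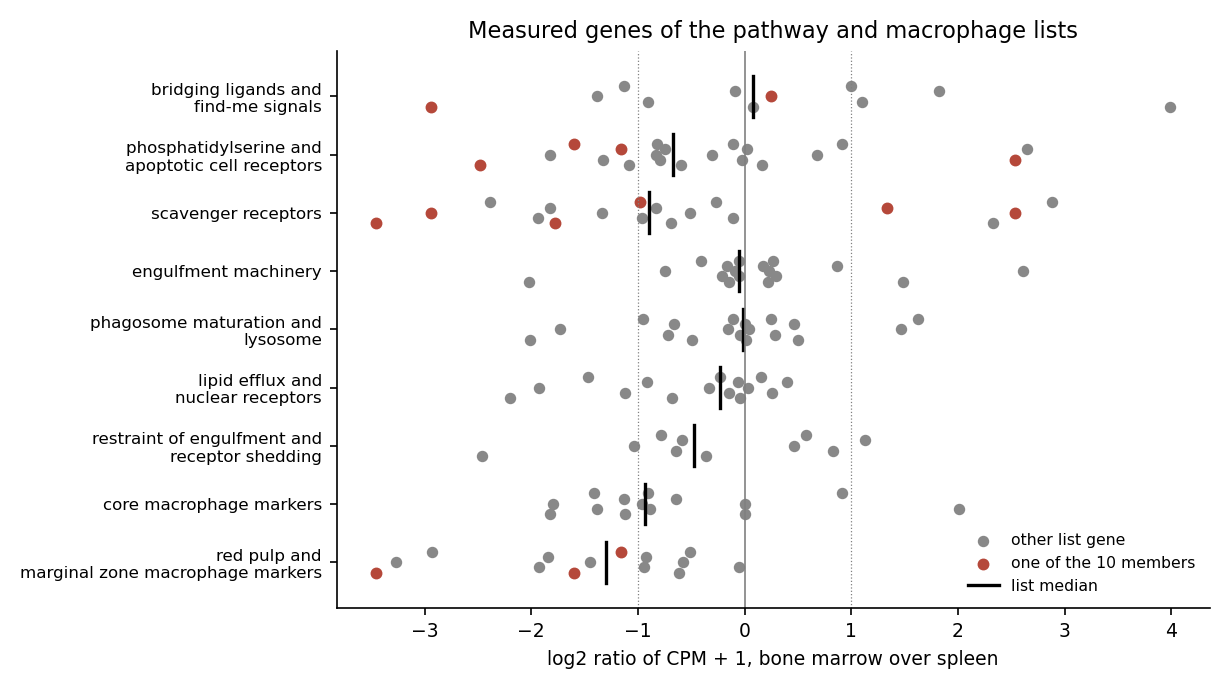
Log2 ratio of CPM + 1, bone marrow over spleen, of each measured gene in the 7 pathway lists and 2 macrophage marker lists; red points are members, grey points other genes, and black bars list medians. Members reach from -3.45 to 2.54, while most engulfment and lysosome genes lie between the dotted 2-fold lines.

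Nearness to a member was measured as the absolute difference in log2 ratio over 111 measured pathway and macrophage genes; with 2 libraries a pattern is 1 ratio, and the list holds genes of other cell types. Nearest to Mertk (-2.48) were Siglecg (-2.46), Cd163l1 (-2.39) and Abca1 (-2.19). Nearest to Cd5l (-2.94) were Spic (-2.93), Clec4n (-3.27) and Siglecg. Nearest to Cd36 (-1.78) were Lgmn (-1.79), Ctss (-1.73) and Maf (-1.83). Among the nearest to Axl (-1.16) were C1qa (-1.13) and Nr4a1 (-1.12). The red pulp and marginal zone list, which holds 3 of the members, was higher in spleen for 8 of its 14 genes and in bone marrow for 0, and summed to 441 CPM in bone marrow, against 1005 CPM in spleen with no marker at 0. Siglec1, the sialoadhesin of metallophilic macrophages, was level at 18.6 CPM in bone marrow, against 19.3 CPM in spleen.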

How the data were processed

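Per the labels' protocols, total RNA of sorted macrophages was made into Illumina libraries, 1 per tissue. The authors deposited 4 values per gene, per the file headers: its read count (unique placements), its length, its covered percent and its RPKM; the sources used here do not give aligner, counting program, strand setting or genome build. The deposited RPKM values were recomputed from counts and lengths to within 6.74e-06 percent. Libraries were joined on the Entrez identifier, a gene missing from a table had 0 reads, and names came from RefSeq (GRCm38.p6), which matched 16379 of 16428 identifiers. A gene given as 0 in both libraries, such as Ly6g, cannot be told from one that was not annotated or had no unique placements. Counts were scaled with TMM (edgeR 4.0.16; factors 0.977 in bone marrow, 1.02 in spleen). A gene was measured if either library had 1 CPM or more and 10 reads or more for it, and 12970 were; all 10 members passed. Differences are bone marrow minus spleen on log2(CPM + 1), with 1 CPM as pseudocount. Intervals of ratios are exact conditional binomial and those of paired ratios exact conditional odds ratios, at 95%; they cover counting error only, and without molecular identifiers reads need not be independent molecules. No p-value was computed, because no tissue was replicated. The procedure was tested on simulated counts. Alternatives included DESeq2 1.42.0 size factors. Members and lists were chosen with earlier results of these data known. The genes named were the members, the 3 genes of largest ratio and the 2 most abundant of each pathway list, the 2 most abundant of each marker list, and the nearest genes; others named, and the ratios to Adgre1, Csf1r, Stab2 and Spic, Timd4 to Mertk and Cd5l to Mertk and the monocyte sum without Cd177 were chosen after their values were seen. Not every gene the rule takes is reported, and 1 of the nearest genes is not reported here. Genes with near-identical copies, such as Pirb, are uncertain, since reads placed at more than 1 site were not counted.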

Additional observations from a re-analysis of the deposited data

How the results depend on the processing

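Under 10 alternatives (3 other library scalings, the deposited RPKM, scaling to core macrophage marker reads, 2 pseudocounts, 2 filters and a 4-fold rule) all 96 member ratios that could be computed had the sign reported; with at least 10 CPM required, Gas6, Timd4, Msr1 and Stab1 were not measured. The filters and the 4-fold rule left each computed ratio unchanged, and a pseudocount cannot change a sign. The sign could therefore have changed only under the other library scalings, the deposited RPKM and the scaling to marker reads. Scaling to a single marker was not among the 10. Per read of Adgre1 the ratios of bone marrow over spleen were 1.19 for Axl (1.03 to 1.38) and 1.19 for Msr1 (0.737 to 1.88), the opposite direction. Per read of Csf1r they were 0.825 for Axl (0.736 to 0.925) and 0.820 for Msr1 (0.514 to 1.29). Cd5l, Mertk and Marco passed the size rule under all 10. The log2 ratio of Axl ranged from -1.22 to -0.39, the last per core macrophage read, and that of Marco from -5.76 with a pseudocount of 0.1 to -1.66 with one of 5. Timd4 was at -0.80 with a pseudocount of 5, Stab1 at 0.94 with the deposited RPKM, and Msr1 passed 2-fold with library totals, with TMM without genes of other cell types and with a pseudocount of 0.1. The count of members higher in bone marrow was 1 with the deposited RPKM, 1 with at least 10 CPM and 1 with the 4-fold rule, under which 3 were higher in spleen. Per core macrophage read, bone marrow had 4828 higher genes of all measured (37.6%) and spleen 863 (6.72%). Spleen had 1210 higher genes with a pseudocount of 5, and with the 4-fold rule the counts were 573 for bone marrow and 530 for spleen. No paired analysis was possible because each tissue has 1 library. Depth limits Marco in bone marrow (1 read), Stab1 in spleen (6 reads) and Timd4 and Gas6 in both.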
